A study of Mus musculus with 4 samples.

Results

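Among 4035 droplet barcodes from mouse pancreatic islets, 145 carried a large amount of insulin mRNA together with mRNA of a second islet hormone. They were chosen by fixed limits on their own unique molecular identifiers (UMIs, each counted as 1 captured RNA molecule): at least 5000 UMIs, at most 20% of them from mitochondrial genes, at least 10% from Ins1 and Ins2 together, and at least 1% from Gcg, Sst and Ppy together. Each was placed by the highest of Gcg, Sst and Ppy, which gave 50 barcodes with insulin and glucagon (Ins+Gcg), 60 with insulin and somatostatin (Ins+Sst) and 35 with insulin and pancreatic polypeptide (Ins+Ppy). The hormone shares chose these barcodes, so those shares are described here and support nothing.

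Islets from C57BL/6 wild-type mice and from C57BL/6 mice with the genotype Malat1-/- (lacking an abundant nuclear long non-coding RNA) were isolated with collagenase and cultured. Both sets had been exposed to TCDD, a dioxin and ligand of the aryl hydrocarbon receptor (AhR), then dissociated with Accutase and profiled with the 10x Genomics 3′ v3 kit. The DMSO-treated samples of the series were not analysed here. There was 1 library per genotype, so the genotypes cannot be told apart from the libraries and no p-value or SD is given. Intervals are exact 95% intervals that cover counting error only, except where stated otherwise.

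An islet is a small endocrine organ of several cell types, each known for 1 hormone. Beta cells make insulin, alpha cells glucagon, delta cells somatostatin and PP cells pancreatic polypeptide. Insulin lowers blood glucose and glucagon raises it, while somatostatin restrains the release of both. The identity of each cell type is held by its own transcription factors, among them Mafa and Nkx6-1 in beta cells, Irx1 and Irx2 in alpha cells and Hhex in delta cells. A droplet that captures more than 1 cell also yields a barcode with several hormones. On the mouse assembly mm10 (GENCODE annotation M21) the hormone genes lie on separate chromosomes: Ins1 at chr19:52264297-52265476, Ins2 at chr7:142678656-142743381, Gcg at chr2:62474530-62483650, Sst at chr16:23889573-23890958 and Ppy at chr11:102099930-102101319.

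The wild-type library held 81872519 UMIs and the Malat1-null library 134950186. After the filters 1626 wild-type and 2409 Malat1-null barcodes were left. The libraries shared 1 barcode sequence among them and none among the dual-hormone barcodes. The labels call the samples beta cells, and 57.4% of the wild-type and 80.9% of the Malat1-null barcodes passed the insulin limit. Malat1 itself followed the labels: all 17 wild-type dual-hormone barcodes held it, the lowest with 290 UMIs, and the 128 Malat1-null ones held 3 Malat1 UMIs in total. RNA outside cells was rich in insulin, which made up 20.8% of the UMIs of barcodes with 10 to 100 UMIs in the wild-type library and 49.2% in the Malat1-null library. Gcg, Sst and Ppy together made up 0.372% and 0.366% of those UMIs.

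Dual-hormone barcodes were more frequent in the Malat1-null library. They were 17 of 934 wild-type insulin barcodes, or 1.82% (95% interval 1.06 to 2.90%), and 128 of 1948 Malat1-null insulin barcodes, or 6.57% (5.51 to 7.76%). The wild-type library held 8 Ins+Gcg, 5 Ins+Sst and 4 Ins+Ppy barcodes, and the Malat1-null library held 42, 55 and 31. Each of the 3 kinds took a larger share of the insulin barcodes in the Malat1-null library. Ins+Gcg was 0.857% (0.370 to 1.68%) in the wild type and 2.16% (1.56 to 2.90%) in Malat1-null. Ins+Sst was 0.535% (0.174 to 1.24%) and 2.82% (2.13 to 3.66%). Ins+Ppy was 0.428% (0.117 to 1.09%) and 1.59% (1.08 to 2.25%). The intervals of the 2 libraries did not overlap for Ins+Sst and overlapped for Ins+Gcg and Ins+Ppy.

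Read from the side of the second hormone, a barcode with glucagon, somatostatin or polypeptide often held insulin too. In the wild-type library 8 of 46 Gcg barcodes (17.4%), 5 of 24 Sst barcodes (20.8%) and 4 of 38 Ppy barcodes (10.5%) passed the insulin limit. In the Malat1-null library it was 42 of 124 (33.9%), 55 of 95 (57.9%) and 31 of 70 (44.3%). Over the 3 hormones this made 15.7% (9.45 to 24.0%) of 108 wild-type barcodes and 44.3% (38.5 to 50.2%) of 289 Malat1-null barcodes. Somatostatin barcodes gave the highest share in each library, but most intervals overlapped. In the wild type they were 7.13 to 42.2% for Sst, 7.82 to 31.4% for Gcg and 2.94 to 24.8% for Ppy. In Malat1-null the Sst interval (47.3 to 68.0%) overlapped that of Ppy (32.4 to 56.7%) and lay above that of Gcg (25.6 to 42.9%).

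At the limits used here, insulin at that level was rarer beside the markers of non-endocrine cells. Barcodes with at least 0.1% of their UMIs from marker lists of endothelial, macrophage, T or B cells passed the insulin limit in 4 of 424 wild-type cases, or 0.943% (0.258 to 2.40%), and in 8 of 267 Malat1-null cases, or 3.00% (1.30 to 5.82%). Endothelial barcodes gave 2 of 82 and 1 of 36. Macrophage barcodes gave 0 of 6 and 3 of 23, and B-cell barcodes gave 2 of 178 and 4 of 168. No T-cell barcode held insulin at the limit, in 0 of 158 and 0 of 40, which allows shares of up to 1.90% and 7.50% at 3 counts of the total, with exact upper limits of 2.31% and 8.81%. In both libraries the interval for the second-hormone barcodes lay wholly above that for the 4 other lineages. The 2 shares are not like for like, because markers were counted against all UMIs and barcodes with insulin were larger. Their markers could thus fall under the limit by size alone, and the part this played was not tested. At marker limits of 0.3% and 0.05% the counts were 1 of 376 and 9 of 455 in the wild type, and 3 of 238 and 9 of 276 in Malat1-null. B-cell barcodes without insulin had a median of 8279 UMIs in the wild type and those with insulin 38705.5, against 11755.5 and 61243.5 in Malat1-null.

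The second-hormone share showed a gap in the wild type and none in Malat1-null. The insulin barcodes without a second hormone (insulin-only, 917 wild-type and 1820 Malat1-null) had a median second-hormone share of 0.00255% and 0.00567%. It stayed under 0.1% in 914 of 917 and in 1794 of 1820. The wild-type barcode nearest below the 1% limit stood at 0.628% and the nearest above at 2.32%, with none between 1% and 2%. In the Malat1-null library the values ran through the limit, at 0.996% and 1.00% on either side, with 12 barcodes between 0.5% and 1% and 35 between 1% and 2%. On the insulin axis the nearest barcodes with a second hormone stood at 3.63% and 10.1% in the wild type and at 4.87% and 11.8% in Malat1-null, so the insulin limit fell in a gap. Among T-, B- and endothelial barcodes under both hormone limits the highest second-hormone share was 0.0771% in the wild type and 0.0442% in Malat1-null. Of all such barcodes, 1 T-cell barcode of the wild type was over the 1% limit, at 16.8%, and is not in that range. Macrophage barcodes were left out here. Over all barcodes under both hormone limits, of any lineage, the highest second-hormone share was 0.0771% in the wild type and 0.0552% in Malat1-null.

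**Figure D1:**
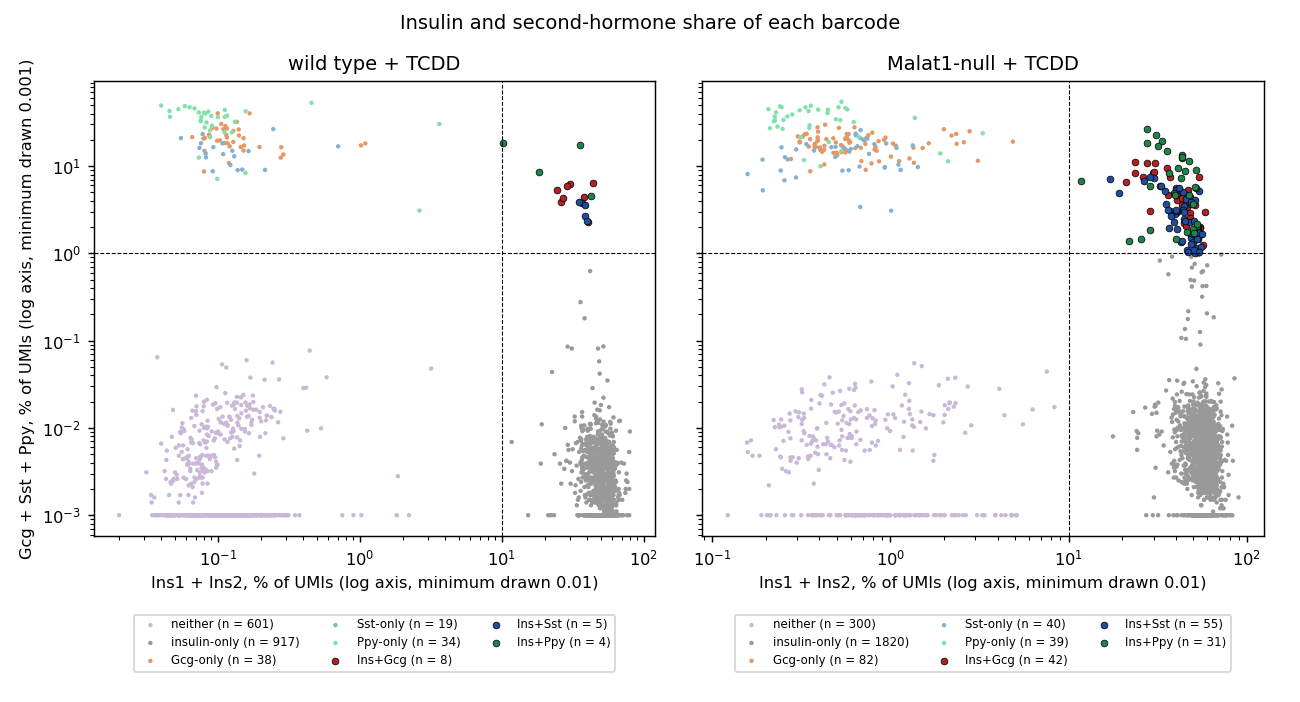
Share of UMIs from Ins1 and Ins2 (horizontal, log axis) against the share from Gcg, Sst and Ppy (vertical, log axis) for each barcode that passed the filters, with the wild-type library on the left and the Malat1-null library on the right; dashed lines mark the 10% and 1% limits. The upper right corner holds the 17 wild-type and 128 Malat1-null dual-hormone barcodes, apart from the insulin-only group in the wild type and running down into it in Malat1-null.

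The wild-type members can be listed whole. The 8 Ins+Gcg barcodes held 961, 2473, 3105, 3196, 3428, 3514, 3590 and 7029 Gcg UMIs. None of the 8 held more than 2 Sst UMIs. The 5 Ins+Sst barcodes held 1860, 2404, 2627, 2632 and 2781 Sst UMIs, with at most 2 Gcg UMIs. Of these, 1 also passed 1% for Ppy, with 1243 Ppy UMIs. The 4 Ins+Ppy barcodes held 3115, 3301, 8147 and 13836 Ppy UMIs and no Gcg or Sst UMI. In the wild type the second hormone was thus 1 hormone at 1% or more in 16 of 17 barcodes.

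Mixtures of several second hormones, each at 1% or more, were found in 31 of 128 Malat1-null and 1 of 17 wild-type dual-hormone barcodes. Of the 128 barcodes, 31 passed 1% for Gcg alone, 37 for Sst alone and 24 for Ppy alone. Another 12 held Gcg with Ppy, 11 Sst with Ppy and 4 Gcg with Sst, and 4 held all of the hormones. The last 5 passed 1% through the sum only, with a median of 105297 UMIs. Several second hormones in 1 barcode also occurred without insulin, in both libraries. In Malat1-null they were found in 11 of 42 Ins+Gcg, 13 of 55 Ins+Sst and 7 of 31 Ins+Ppy barcodes. Gcg-only, Sst-only and Ppy-only barcodes had them in 25 of 82, 29 of 40 and 23 of 39. In the wild type the dual-hormone counts were 0 of 8, 1 of 5 and 0 of 4, where the values of 0 allow up to 36.9% and 60.2%. The wild-type single-hormone counts were 13 of 38, 13 of 19 and 11 of 34. The "only" groups are barcodes with less than 10% insulin and at least 1% second hormone, named by the highest.

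By median, the dual-hormone barcodes were larger than either single-hormone group in most comparisons. Wild-type Ins+Gcg barcodes had a median of 73524.5 UMIs (lowest 41475, highest 111702), insulin-only barcodes 62085 and Gcg-only barcodes 28254. Malat1-null Ins+Gcg barcodes had 62620 (lowest 10483, highest 150247), insulin-only barcodes 48573.5 and Gcg-only barcodes 15625.5. The groups overlapped in both libraries, since single insulin-only barcodes reached 264498 and 224519 UMIs. Compared with the insulin-only median, 12 of 17 wild-type and 99 of 128 Malat1-null dual-hormone barcodes were larger, and 9 and 71 were above the insulin-only upper quartile. The median over all dual-hormone barcodes was 1.28 times the insulin-only median in the wild type (interval 0.805 to 1.37). In Malat1-null it was 1.46 times (1.30 to 1.54). These intervals follow the spread of the dual-hormone barcodes, not counting error. The wild-type interval ran from below to above the insulin-only median, so a larger size was not shown there. The Malat1-null interval lay wholly above it. With a second-hormone limit of 5% the wild-type ratio turned to 0.803, from 7 barcodes.

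Ins+Sst barcodes were the largest in the wild type, at a median of 87446 UMIs, with Sst-only barcodes at 25259. All 5 were above the insulin-only median. In Malat1-null they had 71032 (lowest 30882, highest 207773), with Sst-only barcodes at 16992.5. Ins+Ppy barcodes were the exception in the wild type, where the 4 had 36723, 44129, 72875 and 79422 UMIs and a median of 58502, below insulin-only. The 31 in Malat1-null had 78889, the highest median of that library, with Ppy-only barcodes at 29296.

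The sum of the 2 single-hormone medians gives a plain yardstick for these sizes. The Ins+Gcg median was 0.814 of that sum in the wild type and 0.975 in Malat1-null. The Ins+Sst median was 1.00 and 1.08 of its sum. The Ins+Ppy median was 0.603 (4 barcodes) and 1.01 of its sum. Counted without the 5 hormone genes, the ratios were 0.941 and 1.01 for Gcg, 0.975 and 1.06 for Sst, and 0.663 and 1.08 for Ppy. So the dual-hormone median lay within 10% of the sum in all but the Ins+Ppy barcodes of the wild type on this second scale. A sum of medians describes size alone, and some insulin-only barcodes reached the same values. Whether a barcode held 1 cell or several was not tested.

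**Figure D2:**
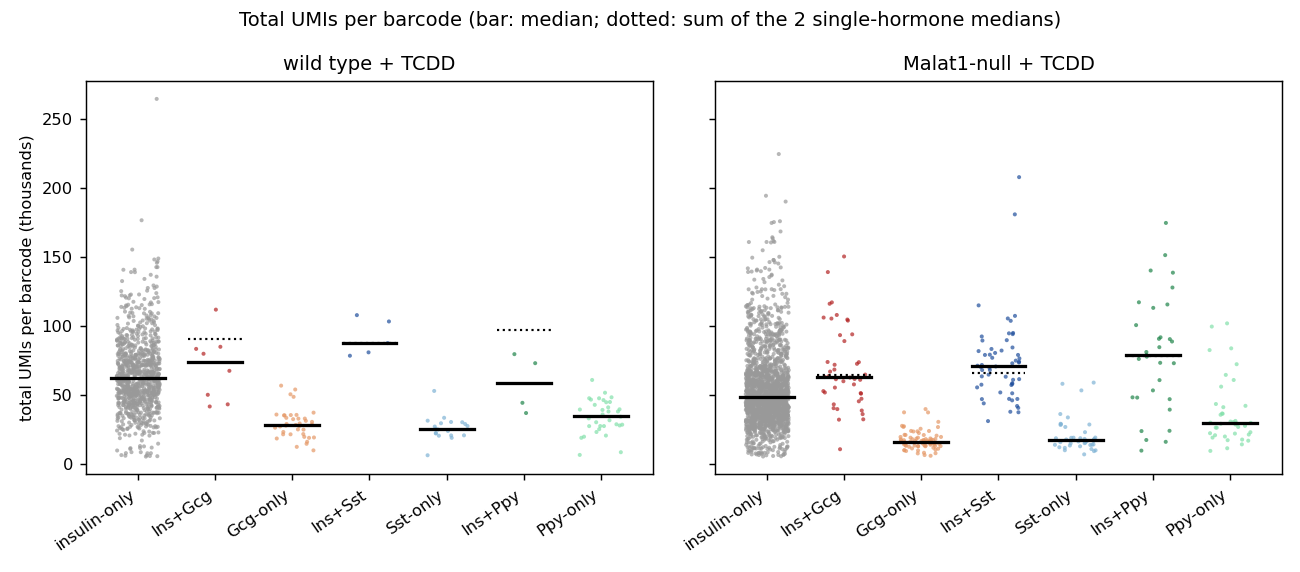
Total UMIs per barcode (vertical, in units of 1000 UMIs) for each group (horizontal), 1 point per barcode, with the wild-type library on the left and Malat1-null on the right; the bar is the median and the dotted line the sum of the insulin-only median and the matching single-hormone median. In Malat1-null the Ins+Gcg, Ins+Sst and Ins+Ppy medians (62620, 71032 and 78889) sit at the dotted lines, while points of the groups overlap.

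Dual-hormone barcodes also showed more genes, while at equal depth the medians were close. The median was 7330 detected genes against 6044 in insulin-only barcodes of the wild type, and 6658 against 5123 in Malat1-null. After every barcode was thinned to 5000 UMIs outside the hormone genes the medians were 2236 against 2230.5 and 2302 against 2315.5. This left out 13 wild-type and 38 Malat1-null insulin-only barcodes that were shallower. The mitochondrial share had a median of 1.60% in the wild-type dual-hormone barcodes against 1.19% in insulin-only barcodes, and of 1.19% in both groups of Malat1-null.

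Counted in molecules, the insulin of a Malat1-null dual-hormone barcode was close to that of an insulin-only barcode. The insulin-only median was 28490.5 insulin UMIs, and Ins+Gcg, Ins+Sst and Ins+Ppy barcodes had 27626, 30869 and 30116. In the wild type the insulin-only median was 31306, and the 3 kinds had 19278.5, 33548 and 17492.5. The second hormone was nearer to or below its single-hormone level. Ins+Gcg barcodes had 3312 Gcg UMIs in the wild type and 2633 in Malat1-null, with Gcg-only barcodes at 4897.5 and 2759. Ins+Sst barcodes had 2627 and 1181 Sst UMIs, with Sst-only barcodes at 2590 and 1882.5. Ins+Ppy barcodes had 5724 and 5966 Ppy UMIs, with Ppy-only barcodes at 11250 and 10320.

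Scrublet, a tool that scores barcodes against simulated mixtures of the library's own barcodes, marked none of the 17 and none of the 128 dual-hormone barcodes. It marked 18 of 1626 wild-type and 5 of 2409 Malat1-null barcodes in all. Its median score was 0.151 in wild-type and 0.125 in Malat1-null dual-hormone barcodes, against 0.0489 and 0.0656 in insulin-only barcodes. No barcode was removed on its calls.

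Gene levels outside the hormones were read from the summed UMIs of each group, in CPM (counts scaled to the same total in each group) over all UMIs except those of Ins1, Ins2, Gcg, Sst and Ppy. A gene was counted as apart when it differed by at least 2-fold in the same direction in both libraries and reached 50 CPM. Ins+Gcg barcodes differed from insulin-only barcodes at 33 of 3473 genes that were higher (0.95%) and 4 that were lower (0.115%). Ins+Sst barcodes had 26 of 3448 genes higher (0.754%) and 3 lower (0.087%). In 26 of the 33 and 17 of the 26 higher genes the insulin-only level was under 50 CPM in at least 1 library, so the gene reached the minimum there only through the pool in which it was high. The 4 wild-type Ins+Ppy barcodes were too few for such a count. Ratios of single genes carry exact intervals for counting error.

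All 10 genes of the alpha-cell list stood between the insulin-only and the Gcg-only level in Ins+Gcg barcodes, in both libraries. Irx1, an alpha-cell transcription factor, was at 0 CPM in wild-type insulin-only, 28.7 in Ins+Gcg and 71.4 in Gcg-only barcodes. In Malat1-null it was at 0.1, 26.2 and 90.9 CPM. Its relative Irx2 stood at 1.9, 48.8 and 112.4 CPM, and at 1.2, 36.7 and 109.6 CPM. Both factors were thus nearly absent from insulin-only barcodes and below the Gcg-only level in the dual-hormone barcodes.

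Of the 10 alpha-list genes 4 reached the minimum level. Ttr, which encodes transthyretin, was at 3366.2 CPM in wild-type Ins+Gcg barcodes, 502.9 in insulin-only and 26261.3 in Gcg-only barcodes. In Malat1-null it was at 5996.1, 559.5 and 18523.6 CPM. Slc38a5, an amino acid transporter of alpha cells, did not reach the minimum and stood at 40.2 against 0.2 CPM and 47.9 against 0.9 CPM.

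Beta-cell genes stayed high in the same barcodes. Mafa encodes a transcription factor of mature beta cells. Its level was 100.4 CPM in wild-type Ins+Gcg barcodes, 316.4 in insulin-only and 0 in Gcg-only barcodes. In Malat1-null it was at 380.0, 650.0 and 3.6 CPM. Ucn3, a peptide of mature beta cells, was at 152, 171 and 0 CPM, and at 175, 308 and 0.9 CPM. G6pc2, a beta-cell glucose-6-phosphatase subunit, was at 453, 627 and 11.7 CPM, and at 406, 698 and 18.7 CPM. None of the 12 beta-list genes was 2-fold apart in both libraries, where 0.95% of all genes tested were higher and 0.115% lower. All 12 were below the insulin-only level, by a median log2 ratio of -0.46 and -0.65. With CPM over all UMIs, 8 of the 12 were below it in both libraries.

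Ins+Sst barcodes held the delta-cell genes at intermediate levels. Hhex, the delta-cell transcription factor, was at 111 CPM in the wild type and 93.7 in Malat1-null, with insulin-only barcodes at 0.456 and 0.708 and Sst-only barcodes at 272 and 244 CPM. Rbp4, a retinol-binding protein abundant in delta cells, was at 2755 and 3700 CPM, with insulin-only at 3.54 and 37.0 and Sst-only at 7842 and 8693 CPM. Both reached the minimum only through the pool in which they were high, so passing the 2-fold limit adds nothing to these values. The other 4 of the 6 delta-list genes did not reach it. Ghsr, the ghrelin receptor of delta cells, was low everywhere, at 3.7 and 6.1 CPM in Ins+Sst and 28.7 and 25.1 CPM in Sst-only barcodes. Ptprz1 was at 44.5 and 46.8 CPM, with insulin-only at 0.1 and 0.2 and Sst-only at 212.7 and 168.8 CPM.

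The beta-cell list in Ins+Sst barcodes was lower than in insulin-only barcodes by a median log2 ratio of -0.99 in the wild type and -0.68 in Malat1-null, with -0.05 and -0.04 over all genes tested. Of its 12 genes, 1 passed the limit. Ucn3 was at 77.9 CPM in Ins+Sst and 171 in insulin-only barcodes of the wild type, a ratio of 0.454 (0.281 to 0.695). In Malat1-null it was at 145 and 308 CPM, a ratio of 0.470 (0.419 to 0.527). Sst-only barcodes were at 0 in both. With CPM over all UMIs the Ucn3 ratios were 0.556 and 0.596, and it no longer passed 2-fold. On that scale 8 of the 12 genes were below insulin-only in both libraries and 1 was above.

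**Figure D3:**
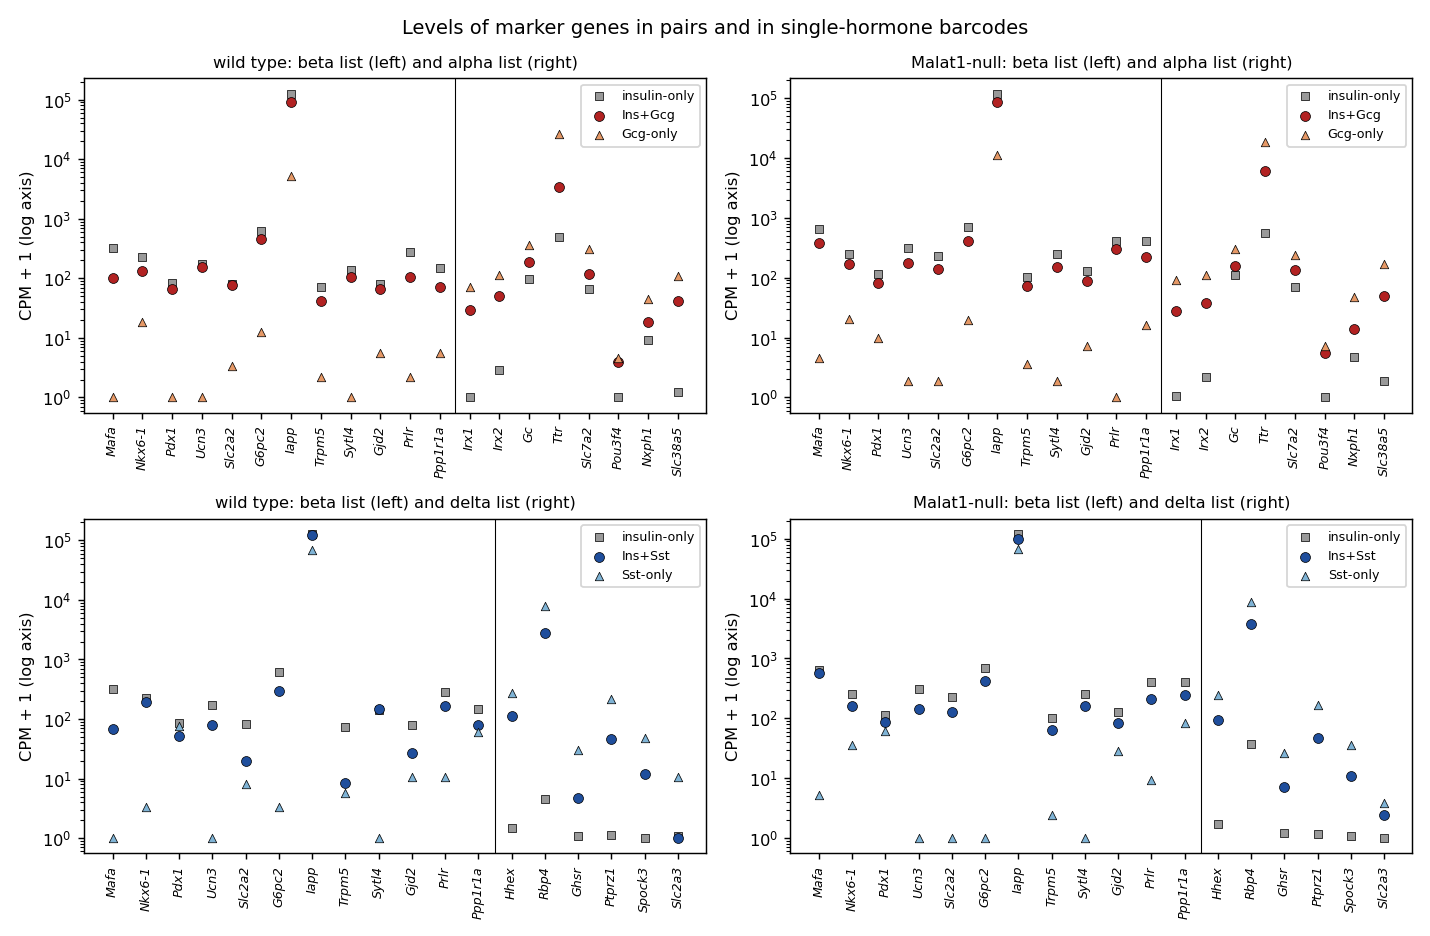
Pooled level of marker genes (CPM outside the 5 hormones plus 1, log axis) in insulin-only barcodes (squares), dual-hormone barcodes (circles) and single-hormone barcodes (triangles), with Ins+Gcg in the upper row, Ins+Sst in the lower row, wild type on the left and Malat1-null on the right. Most circles sit between square and triangle, such as Irx1 at 0, 28.7 and 71.4 CPM and Mafa at 316.4, 100.4 and 0 CPM in insulin-only, Ins+Gcg and Gcg-only barcodes of the wild type.

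Other genes among the most different belonged to the second hormone's single pool as well. In Ins+Gcg barcodes Eef1a2, a translation elongation factor of neurons and muscle, was at 74.6 CPM in the wild type and 70.9 in Malat1-null, against 0.105 and 0.659 in insulin-only barcodes and 180 and 217 in Gcg-only barcodes. Gpx3, the secreted glutathione peroxidase, was at 723 and 656 CPM, a ratio to insulin-only of 57.9 (49.1 to 68.2) and 22.2 (20.4 to 24.1). Id1, an inhibitor of helix-loop-helix transcription factors, was at 204 and 133 CPM, with ratios of 65.3 (47.1 to 90.2) and 51.2 (40.3 to 65.4). Basp1, Higd1a, Sfrp5, Rbp4 and Pyy completed the 8 highest, each with at least 13.5-fold in both libraries. All of these genes were below the Gcg-only level in both libraries.

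In Ins+Sst barcodes the 8 highest were Ly6h, Gap43, Rbp4, Hhex, Pyy, Arg1, Gpx3 and Cd24a. Gap43, a growth-cone protein of neurons, was at 89.0 and 74.0 CPM, with insulin-only at 0.0701 and 0.977 CPM and Sst-only at 108 and 209 CPM. Arg1, the arginase that yields ornithine, was at 141 and 226 CPM, a ratio of 46.2 (30.7 to 68.3) and 37.9 (32.4 to 44.4). Pyy, the peptide related to pancreatic polypeptide, was at 32135 and 28763 CPM, with insulin-only at 219 and 700 CPM. Pyy was high in every second-hormone group, at 39576 and 30968 CPM in Gcg-only and 85568 and 66794 CPM in Sst-only barcodes. Of the PP list, Tspan8 was at 118.6 and 155.5 CPM in Ins+Sst barcodes, with insulin-only at 23.7 and 19.8. Folr1 was at 92.7 and 66.0 CPM, with insulin-only at 29.5 and 17.8, so both reached the minimum only through the Ins+Sst pool.

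The genes that were lower came mostly from the acinar pancreas, and their level in the insulin-only pool rested on few barcodes. In Ins+Gcg barcodes Prss2 (trypsinogen), Ctrb1 (chymotrypsinogen) and Cela1 (an elastase) were the 3 acinar genes tested, and all 3 were lower. Prss2 was at 34.4 and 0.656 CPM against 150 and 93.2 CPM. In insulin-only barcodes 57.3% of the wild-type and 92.9% of the Malat1-null Prss2 UMIs lay in the 10 highest barcodes. For Ctrb1 the 10 highest held 48.5% and 91.1%. In Ins+Sst barcodes Prss2 and Ctrb1 were also lower, at 26.0 and 4.68 CPM and at 37.1 and 8.43 CPM. Cela1 was above insulin-only there, at 148 against 63.6 CPM in the wild type and 74.5 against 60.2 CPM in Malat1-null. The highest Ins+Sst barcode held 27 of 40 Cela1 UMIs in the wild type and 17 of 159 in Malat1-null. The 10 highest insulin-only barcodes held 53.6% and 91.2% of the Cela1 UMIs of that group. The fourth lower gene, the small heat-shock protein gene Hspb1, had 0 UMIs in wild-type Ins+Gcg barcodes against 142 CPM, at least 16.5-fold lower against a floor of 3 counts over the group. It was at 22.3 against 74.5 CPM in Malat1-null, and the 10 highest insulin-only barcodes held 34.8% and 57.0% of its UMIs.

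At a limit of 1.5-fold in both libraries, few genes lay outside the range set by the 2 single-hormone pools. No gene of 3732 (0%) was above both pools by 1.5-fold in both libraries for Ins+Gcg, and 4 (0.107%) were below both, Hspb1, Prss2, Ctrb1 and the acinar carboxypeptidase Cpa1. For Ins+Sst 0 of 3723 were above (0%) and 0 below (0%). Among genes 2-fold apart between the pools, 97.5% of 642 lay inside the range for Ins+Gcg of Malat1-null, 96.5% of 600 for Ins+Sst and 96.3% of 681 for Ins+Ppy. In the wild type the shares were 91.7% of 577, 82.2% of 635 and 68.7% of 581, from 8, 5 and 4 barcodes. Genes share the same few barcodes here and are not replicates.

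The median gene stood nearer to the insulin-only than to the single-hormone level. For Ins+Gcg this position was 35.9% in the wild type and 34.9% in Malat1-null, for Ins+Sst 35.3% and 34.5%, and for Ins+Ppy 43.4% and 32.8%. Mixing the 2 pools in proportion to their median UMIs outside the hormones would place it at 41.0% and 38.6% for Gcg, 42.1% and 41.8% for Sst, and 41.9% and 45.3% for Ppy. The observed medians were below these weights, except for wild-type Ins+Ppy, which was above.

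Transcription factors of both identities were found in the same barcode. A UMI of Mafa or Nkx6-1 together with a UMI of Irx1, Irx2 or Pou3f4 was present in 7 of 8 wild-type and 36 of 42 Malat1-null Ins+Gcg barcodes. Insulin-only barcodes had both in 32 of 917 (3.49%) and 41 of 1820 (2.25%), Gcg-only barcodes in 8 of 38 and 16 of 82, and barcodes with neither hormone in 0 of 601 and 0 of 300. Median depth outside the hormones was 48133 and 33077 UMIs in Ins+Gcg, 30173 and 20059.5 in insulin-only and 10954 and 11117.5 in hormone-negative barcodes. Thinned to 5000 UMIs, 2 of 8 and 8 of 42 Ins+Gcg barcodes still held both, against 0.553% and 0.337% of insulin-only barcodes. Thinned Gcg-only barcodes held both in 3 of 38 and 4 of 81. These small factor sets were taken from the marker lists after their levels had been seen.

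Mafa or Nkx6-1 together with Hhex was present in 5 of 5 wild-type and 46 of 55 Malat1-null Ins+Sst barcodes. It was present in 5 of 917 and 15 of 1820 insulin-only barcodes and in 1 of 19 and 11 of 40 Sst-only barcodes. After thinning it was found in 1 of 5 and 22 of 55 Ins+Sst barcodes. Hormone-negative barcodes had Hhex with a beta factor in 23 of 601 and 3 of 300, and Hhex alone is also known in B and endothelial cells.

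Within the Malat1-null library the summed alpha list followed the hormone share, and most of that sum was Ttr. The summed alpha list of Ins+Gcg barcodes was 3602 CPM where the second hormones were 1 to 2% of UMIs (5 barcodes), 6248 at 2 to 5% (22), 8239 at 5 to 10% (12) and 11521 at 10% or more (3). Without Ttr the other 9 genes summed to 659, 820, 989 and 618 CPM, lowest in the last bin of 3 barcodes. The beta list without Iapp ran against the alpha sum, at 3318, 2403, 1565 and 703 CPM, and the median insulin share at 53.2, 45.9, 34.1 and 27.6%. The insulin-only levels were 767 CPM for the alpha and 3546 for the beta list, and the Gcg-only levels 20612 and 77.5 CPM. Only the 2 to 5% bin held 20 barcodes or more. Below the 1% limit the order broke, with an alpha sum of 2498 CPM at 0.5 to 1% and of 5003 at 0.1 to 0.5%, each from 2 barcodes. The 8 wild-type barcodes gave 3846 and 4446 CPM for the alpha list at 2 to 5% and 5 to 10%, with 1354 and 1386 CPM for the beta list.

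In Ins+Sst barcodes of Malat1-null the delta list, most of it Rbp4, was higher in each bin. It summed to 2486 CPM at 1 to 2% (23 barcodes), 4311 at 2 to 5% (22) and 6404 at 5 to 10% (10), and the beta list to 2808, 2003 and 1477 CPM. Without Rbp4 the other 5 genes summed to 128, 193 and 169 CPM, so the last 2 bins were not in that order. The 8 barcodes just outside the limit, at 0.5 to 1%, had 1986 CPM of the delta list, against 38.3 in all insulin-only barcodes and 9168 in Sst-only barcodes. Their median size was 105089 UMIs. In Ins+Ppy barcodes the beta list stood at 2726, 2117, 2280 and 2522 CPM from the lowest to the highest bin. The PP list stood at 47635, 49434, 49213 and 91126 CPM, nearly all of it Pyy.

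**Figure D4:**
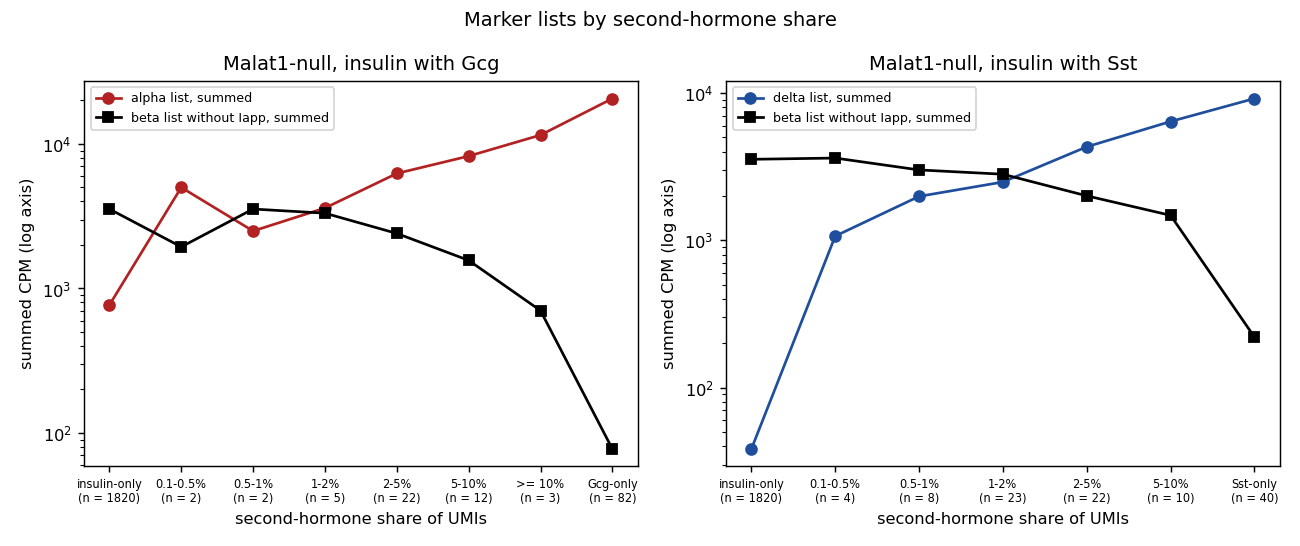
Summed marker level (CPM, log axis) against the second-hormone share of Malat1-null barcodes, for Ins+Gcg (left) and Ins+Sst (right); circles are the alpha or delta list, squares the beta list without Iapp, and the ends are the insulin-only and single-hormone pools. Between 1% and the single-hormone pool the alpha list climbs from 3602 to 20612 CPM while the beta list drops from 3318 to 77.5 CPM; bins below 1% hold 2 to 8 barcodes.

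The Ins+Ppy barcodes carried polypeptide-cell genes beside beta genes, with several beta genes low or at 0 in the 4 wild-type barcodes. Pyy was at 72880 CPM in the wild type and 60776 in Malat1-null, with Ppy-only barcodes at 159853 and 162310 CPM. Tspan8, a tetraspanin, was at 618.8 and 334.4 CPM, with insulin-only at 23.7 and 19.8 and Ppy-only at 989.3 and 906.7 CPM. Of the beta genes, Mafa was at 29.8 CPM in wild-type Ins+Ppy barcodes against 316 in insulin-only barcodes, and at 392 against 650 CPM in Malat1-null. Slc2a2 and Trpm5 were at 0 CPM in the wild type, and at 117 against 230 and at 69.2 against 101 CPM in Malat1-null. G6pc2 was at 276 against 627 CPM and at 421 against 698 CPM. Ghrl (ghrelin), the hormone of epsilon cells, was at 8303.3 CPM in Ppy-only barcodes of Malat1-null, where 1 of the 39 barcodes held all of its 7555 UMIs. It was at 0.8 CPM in the Ins+Ppy barcodes of that library and at 0 CPM in wild-type Ppy-only barcodes.

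The shared endocrine and oxidative-stress lists had no gene counted apart, but few of all genes tested were. Those were 0.95% higher and 0.115% lower for Ins+Gcg, and 0.754% and 0.087% for Ins+Sst. At these shares a short list would mostly hold none, so the absence of calls says little about the lists. Of the 7 genes of the AhR list, 2 reached the minimum for Ins+Gcg and neither was apart. For Ins+Sst 0 of the 7 reached it, so that list could give no call there. None of the 12 shared endocrine genes (granins, prohormone convertases, Neurod1, Isl1, Pax6 and others) was 2-fold apart in Ins+Gcg or Ins+Sst barcodes in both libraries, with median log2 ratios of -0.02 and -0.06 and of -0.14 and -0.11. With CPM over all UMIs these medians turned positive, at 0.35 and 0.27 and at 0.15 and 0.23. Of the oxidative-stress list 9 genes were tested in each comparison and none was apart. Its most abundant member, the metallothionein gene Mt1, was at 7160 CPM in Ins+Gcg and 14994 in Ins+Sst barcodes of the wild type, with insulin-only at 12600, and at 3634, 5326 and 4745 CPM in Malat1-null. The AhR target Cyp1a1 was at 0 CPM in the wild-type dual-hormone groups and at most 0.7 CPM in those of Malat1-null, with insulin-only barcodes at 4.4 and 1.3 CPM. A floor of 3 counts was 8.61, 11.1 and 22.4 CPM in wild-type Ins+Gcg, Ins+Sst and Ins+Ppy barcodes. In Malat1-null it was 1.97, 1.40 and 2.50 CPM. The insulin-only levels lay under these floors, so the groups cannot be told apart for Cyp1a1.

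Of the genes of immature or dividing cells, Neurog3 was above its insulin-only level in Ins+Sst barcodes, as was Fev in Malat1-null, at levels under 50 CPM. Neurog3, the factor of endocrine progenitors, was at 22.2 and 15.5 CPM in Ins+Sst barcodes, 1.75 and 0.61 in insulin-only and 43.0 and 64.2 CPM in Sst-only barcodes, and at 0 and 3.9 CPM in Ins+Gcg barcodes. Fev, a transcription factor of the endocrine lineage, was at 11.1 and 10.3 CPM in Ins+Sst and 5.74 and 10.5 in Ins+Gcg barcodes, with insulin-only at 0.491 and 0.708 CPM. In the wild type the Fev levels were at or under the floor of 3 counts, 11.1 CPM in Ins+Sst and 8.61 CPM in Ins+Gcg barcodes. They cannot be told apart from insulin-only there, and wild-type Neurog3 in Ins+Sst barcodes also rested on few UMIs. Aldh1a3, a gene linked to beta-cell dedifferentiation, was at 0 CPM in each dual-hormone group of the wild type and at 5.9 CPM or less in Malat1-null. Mki67, the proliferation marker, was at 0 in the wild type and at 1.7 CPM or less in Malat1-null. A wild-type value of 0 means only a level under the floors of 3 counts, which were 8.61, 11.1 and 22.4 CPM. The 8 genes of the proliferation list summed to 3.89 CPM in wild-type insulin-only barcodes, under these floors. The wild-type groups thus cannot be told apart for Mki67.

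Markers of non-endocrine cells were low too. The 7 endothelial markers summed to 5.7, 11.1 and 7.5 CPM in wild-type Ins+Gcg, Ins+Sst and Ins+Ppy barcodes and to 13.8, 18.3 and 10.0 CPM in Malat1-null, against 23.6 and 11.3 CPM in insulin-only barcodes. The 7 macrophage markers summed to 14.9 to 80.4 CPM in the wild type and 58.4 to 95.5 CPM in Malat1-null, against 61.0 and 75.2 CPM. All 7 T-cell markers were at 0 in wild-type Ins+Sst and Ins+Ppy and in Malat1-null Ins+Gcg barcodes, and the highest sum was 30.0 CPM, in Ins+Ppy of Malat1-null. The ductal list had larger sums. In Ins+Gcg barcodes it was at 3016 CPM in the wild type and 814 in Malat1-null, with 3 and 1 of its 6 markers at 0. Insulin-only barcodes were at 1877 and 766 CPM and Gcg-only barcodes at 2977 and 1362 CPM. Ins+Sst barcodes were below insulin-only in both libraries, at 593 and 684 CPM. Ins+Ppy barcodes were at 1610 and 897 CPM. Spp1, one of the 6, was at 2528 and 285 CPM in Ins+Gcg barcodes. The part of ductal RNA in the results was not tested.

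Several of the largest differences between the dual-hormone barcodes of the 2 libraries went the same way in insulin-only barcodes. Apart from the 2-fold limit, the counting interval had to lie beyond 1.5-fold. Malat1-null Ins+Gcg barcodes had 26 of 3821 genes higher (0.68%) and 27 lower (0.707%) than wild-type ones, and Ins+Sst barcodes 30 of 3836 higher (0.782%) and 25 lower (0.652%). Mafa was higher by 3.78 (2.69 to 5.49) in Ins+Gcg and by 8.67 (5.46 to 14.7) in Ins+Sst barcodes, and by 2.05 in insulin-only barcodes. Slc2a2, the glucose transporter of mouse beta cells, was higher by 6.90 (2.92 to 21.4) in Ins+Sst and by 2.86 in insulin-only barcodes. Nfkbia, the inhibitor of NF-kB, was higher by 3.14 (2.48 to 4.03) in Ins+Gcg and by 2.18 in insulin-only barcodes. Others were near 1 there: Ddit3, a stress-response transcription factor, was higher by 3.45 (2.36 to 5.26) in Ins+Gcg and by 1.34 in insulin-only barcodes.

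On the lower side, Malat1 led both comparisons. Spp1 (osteopontin) was 8.88-fold lower in Malat1-null Ins+Gcg barcodes, at 285 CPM against 2528, and at 184 against 1274 CPM in insulin-only barcodes. The immediate-early genes Fos and Fosb were 4.19-fold and 8.98-fold lower, and both were also lower in insulin-only barcodes, at 120 against 350 CPM and at 8.86 against 68.8 CPM. These ratios compare 8 and 5 wild-type barcodes of 1 library with 42 and 55 of the other, and their intervals hold no variation between animals.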

How the data were processed

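The sources were the UMI matrices deposited for the TCDD-treated wild-type and Malat1-null libraries and GENCODE M21 for positions. The deposited values are raw UMI counts per gene and barcode (32285 genes, 6794880 listed barcodes, unfiltered). The submitters' processing notes name Cell Ranger 2.1.0 and mm10, while the file headers name Cell Ranger 4, and the difference was not resolved. Filters on cells or doublets before deposit are not given in the sources used here.

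Barcodes with at least 5000 UMIs and at most 20% mitochondrial UMIs were kept (0 wild-type and 2 Malat1-null barcodes were removed by the second limit) and sorted by the 10% insulin and 1% second-hormone limits. UMIs were summed per group and library and scaled to CPM without Ins1, Ins2, Gcg, Sst and Ppy. Genes needed 50 CPM in 1 of the pools compared in both libraries and 20 UMIs over both pools. Groups under 5 barcodes gave no gene counts. Library depth was 81872519 and 134950186 UMIs. Shares carry Clopper-Pearson intervals, and ratios of gene levels exact conditional intervals, which cover counting error only.

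Members and gene lists were chosen with earlier results of these data known. Named genes were all members of the lists, the 8 highest and 4 lowest genes by the geometric mean of the ratios in both libraries, the same numbers between libraries by ratio, and genes outside the range of both pools. Some list members are not reported here. Of the lists, ductal and PP genes are also made by islet cells. Alternatives were other limits, TMM factors (edgeR 4.0.16, R 4.3.3), CPM over all UMIs and other minimum levels. Code was tested on simulated data (Python 3.11, scipy 1.17.1, scanpy 1.11.5 with Scrublet).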

Additional observations from a re-analysis of the deposited data

How the results depend on the processing

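Of the values recomputed under other settings, 62 stayed the same, 30 moved and 4 reversed. A count stayed the same within 1.5-fold of its main value, and a ratio of medians or a share within the interval of its main value. A ratio of medians reversed when its direction changed. No paired analysis was possible because each genotype had 1 library and no test was run. With a second-hormone limit of 5% the dual-hormone barcodes numbered 7 in the wild type and 44 in Malat1-null, and the wild-type ratio of their median UMIs to insulin-only barcodes reversed, from 1.28 to 0.803. At that limit the wild-type groups fell under 5 barcodes, so gene counts were not run. Without the hormone genes the UMI ratio was 1.57 and 1.79, and with a minimum of 1000 UMIs it was 1.54 in Malat1-null. The ratio of detected genes, 1.21 and 1.30, was 1.00 and 0.994 after thinning to 5000 UMIs and 0.997 and 0.986 after thinning to 3000, since depth was then equal.

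Gene counts moved with the minimum level and the fold limit. For Ins+Gcg, 65 genes were higher and 19 lower at 20 CPM, 11 and 0 at 200 CPM, and 203 and 516 with no minimum. A limit of 1.5-fold gave 59 and 38, and 3-fold gave 21 higher. For Ins+Sst the counts were 69 and 16, 10 and 0, and 249 and 420, with 53 and 54 at 1.5-fold and 11 higher at 3-fold. CPM over all UMIs left 1 lower gene for each, and shifted the median log2 ratio of all genes tested from -0.00 to 0.37 and from -0.03 to 0.33 for Ins+Gcg, and from -0.05 to 0.27 and from -0.04 to 0.32 for Ins+Sst. Of its higher genes, 20 of 31 and 17 of 29 were among those of the hormone-free scale. At 1.2-fold, 17 and 8 genes lay outside the range of both pools, and CPM over all UMIs left 1 for Ins+Gcg. At a lineage limit of 0.3% the share of other lineages with insulin was 0.266% in the wild type and 1.26% in Malat1-null, and at 0.05% it was 1.98% in the wild type. With an insulin limit of 5% it was 4.49% in Malat1-null. CPM over all UMIs also ended the count of Ucn3 as lower in Ins+Sst barcodes. The 17, 8, 5 and 4 wild-type barcodes limit every wild-type value. The sums of the alpha and delta lists without Ttr and Rbp4 were an alternative chosen after seeing the data.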
